A study of Mus musculus with 7 samples.

Results

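The genes described here belong to the Wnt pathway: the Wnt ligands, their frizzled and Lrp receptors, the R-spondins and their Lgr receptors, the secreted Sfrp, Dkk and Notum inhibitors, and the intracellular Axin, Nkd, Lef1 and Tcf7 factors. They were picked out by gene symbol, and 46 of the 16167 genes in the deposited table matched. The libraries were made from whole mouse kidneys at E15.5. The 4 mutant libraries (Six2-Cre; Irx3/5(loxP/loxP)) came from embryos with floxed Irx3 and Irx5 alleles on both chromosomes and a Cre recombinase driven by Six2, which is active in nephron progenitors and so in the nephrons they form, but not in the stroma or the ureteric tree. The 3 control libraries (Irx3/5(loxP/+)) came from littermates with 1 floxed and 1 intact allele; their genotype label reads WT and no Cre is named, so an effect of Cre and an effect of the deletion cannot be told apart. How many embryos entered a library is not stated, so a p-value here weighs only the spread among libraries, which may be technical.

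Wnt ligands bind a frizzled receptor together with Lrp5 or Lrp6, and beta-catenin then escapes breakdown, enters the nucleus and acts there with Lef1 and the Tcf7 family of DNA-binding proteins. Cells that respond make more of several brakes on the pathway, among them Axin2, Nkd1 and Notum, whose RNA is therefore widely used as a readout. In the developing kidney Wnt9b from the ureteric epithelium acts on the nephron progenitors around it, some of which then express Wnt4 and turn into the epithelium of a new nephron.

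Irx3 was at 6.63, 3.98, 5.57 and 6.75 FPKM in mutant replicates 1 to 4, against 14.7, 14.2 and 12.7 FPKM in control replicates 1 to 3 (log2 fold change -1.16, SE 0.149; limma adjusted p = 0.0145). Without control replicate 1 or 2 the limma adjusted p of Irx3 was 0.0696 and 0.0839. Irx5 was at 0.895 to 2.05 FPKM in mutants and 1.36 to 1.59 FPKM in controls; which part of either gene is removed is not stated, so the level of Irx5 does not check its deletion. Summed reads, as recovered from FPKM and baseMean, ran from 45539155 to 53497462 in mutants and from 40511920 to 69028943 in controls. Every marker chosen for nephron progenitors, new nephrons, stroma, ureteric epithelium, podocytes, proximal tubule, vessels and immune cells was listed. Nephron progenitor markers summed to 246.4 to 275.0 FPKM in mutants and 340.2 to 346.9 FPKM in controls, and markers of new nephrons (pretubular aggregate and renal vesicle) to 178.8 to 207.9 and 211.7 to 221.6 FPKM. Ureteric markers summed to 355.4 to 403.0 FPKM in mutants and 308.4 to 331.1 FPKM in controls, and stromal markers to 908.6 to 1139.7 and 707.9 to 1013.3 FPKM, so that only the stromal sums overlapped among these 4 lists. Abundant markers weigh most in a sum, and in the ureteric list these were Krt8, Krt18 and Calb1. Of the 13 ureteric markers, 8 had a fold change above 0 and 5 below. The embryonic beta-globin gene Hbb-y, whose share falls as an embryo ages, was at 1.38% to 2.24% of adult Hbb-bs in mutant replicates 1, 2 and 4 and at 10.5% in mutant replicate 3, against 1.34% to 3.45% in controls.

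**Figure D1:**
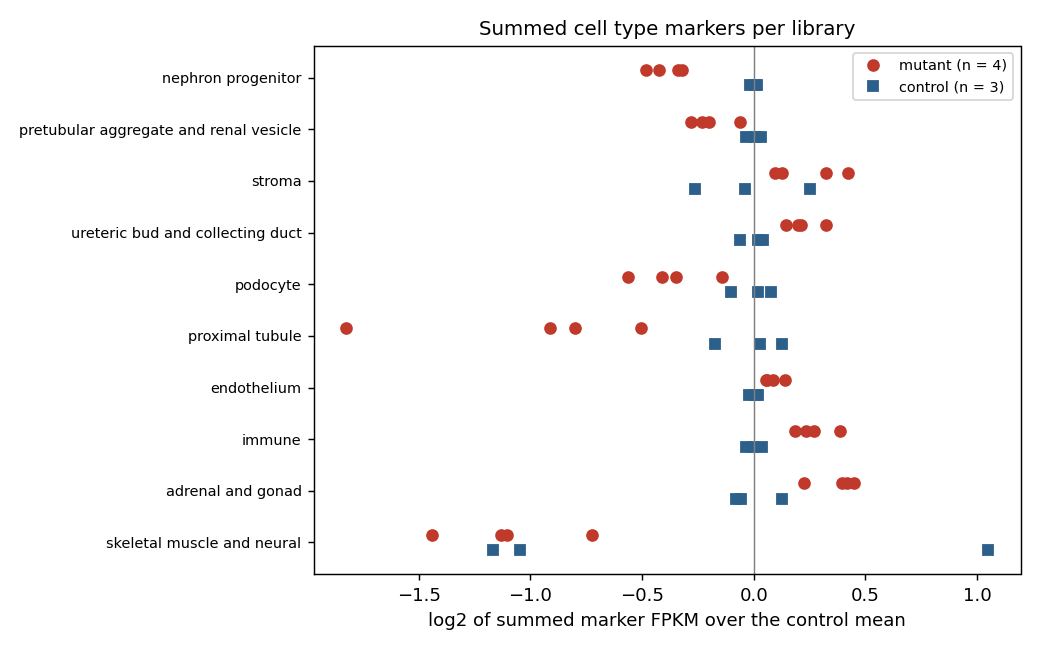
Summed FPKM of each marker list in every library, as log2 of the ratio to the mean of the controls (circles, 4 mutants; squares, 3 controls). The proximal tubule sum lies lowest in mutant replicate 3, at 46.5 FPKM against 146.1 to 179.8 FPKM in controls, and the control square far to the right in the bottom row is control replicate 1, at 53.1 FPKM.

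Differences in the Wnt module were small and of both signs. Among its genes, the inhibitors Axin2, Nkd1 and Notum, the nuclear factor Lef1 and the ligands Wnt9b and Wnt4 were higher in every mutant library than in any control, while the ligand Wnt11, the receptors Fzd4 and Fzd8 and the inhibitor Dkk1 were lower in every mutant. Of the 46 genes, 37 had at least 1 FPKM in at least 3 libraries and were tested. None passed an adjusted p under 0.05 in limma, the linear model fitted to log2(FPKM + 1) of all 13466 genes tested, of which 1.53% passed, 0.475% as higher and 1.05% as lower in mutants. At an unadjusted p under 0.05 there were 14 module genes, 9 higher and 5 lower (37.8% of those tested, where the share over all genes was 13.7%, made up of 5.26% higher and 8.48% lower). In 15 module genes the mutant and control values did not overlap, with mutants higher in 10 and lower in 5 (40.5%, against 14.5% over all genes tested, 5.93% with mutants higher and 8.61% with mutants lower).

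The authors' deposited DESeq2 table called 8 of the 46, with Axin2, Nkd1, Notum, Wnt9b and Rspo3 higher and Wnt11, Fzd4 and Fzd8 lower in mutants. That is 17.4% of the listed module genes, where the table called 5.49% of all genes, 1.75% as higher and 3.74% as lower. With limma-voom on the recovered reads 0 passed and 15 had an unadjusted p under 0.05. The median log2 fold change of the 37 was -0.04, with 17 above and 20 below 0, and that of all genes -0.0020, with 49.2% of them above 0. Their median absolute log2 fold change was 0.15 and the largest 0.46, where the median over all genes was 0.08. All values are RNA of the whole organ, in which a smaller number of cells of a type and less RNA per cell cannot be told apart.

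**Figure D2:**
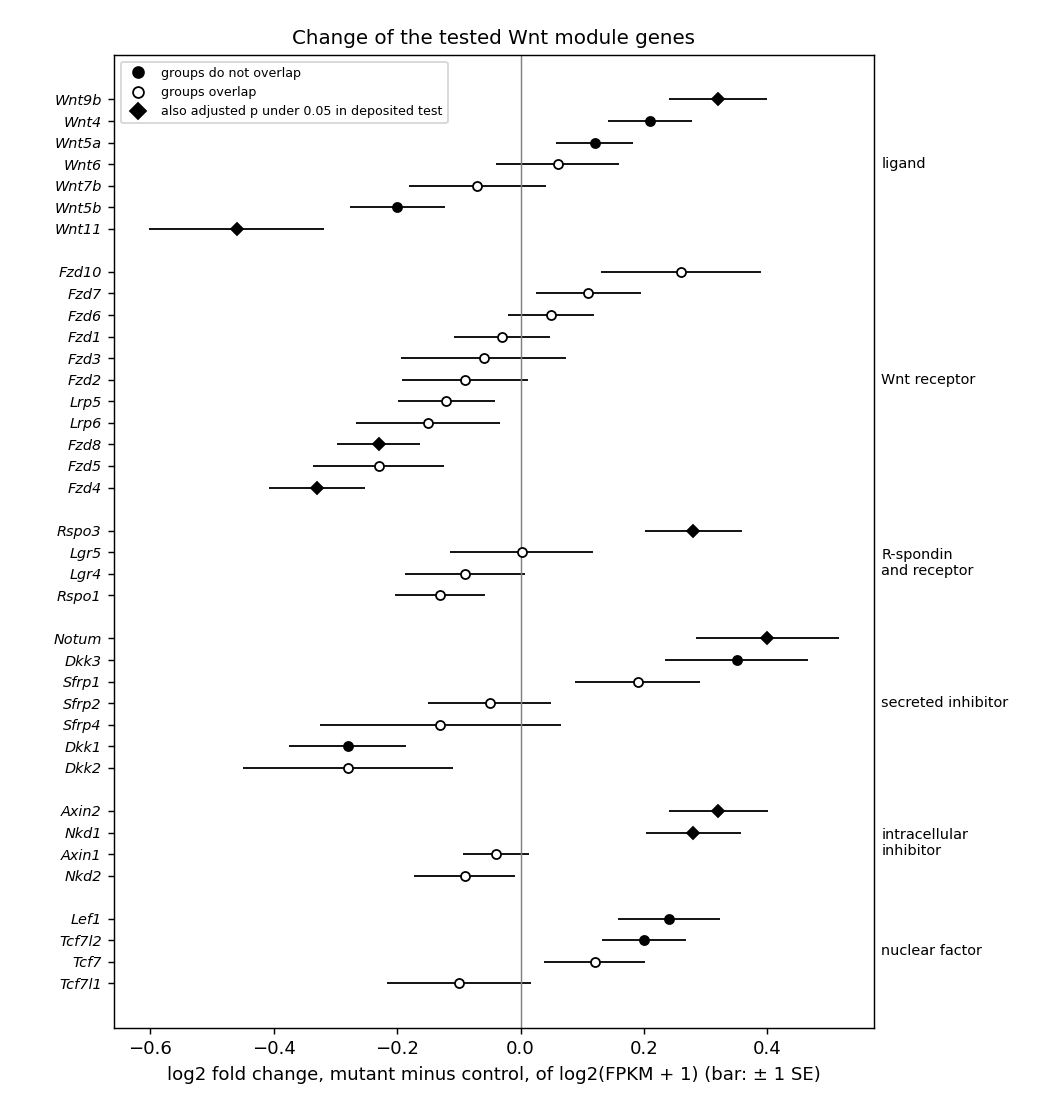
Log2 fold change (positive where mutants were higher, from log2(FPKM + 1)) with 1 SE for the 37 tested genes, grouped by role. Filled symbols mark the 15 genes whose groups do not overlap and diamonds the 8 with an adjusted p under 0.05 in the authors' deposited table; values run from -0.46 for Wnt11 to 0.40 for Notum.

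On the per-length FPKM scale Wnt4 led the ligands in every library, and Wnt11, Wnt5a, Wnt9b, Wnt7b and Wnt5b, at 5.13 to 16.4 FPKM, made up most of the rest. Wnt4 made up 43.7% ± 1.53 of the summed ligand FPKM in mutants and 38.7% ± 1.26 in controls (SD, n = 4 and 3). Wnt11 made up 13.1% ± 1.94 in mutants and 19.1% ± 1.75 in controls. The sum of all 12 listed ligands overlapped between groups, at 75.1 to 85.5 FPKM in mutants and 76.2 to 78.7 FPKM in controls. In controls Wnt11 was above Wnt5a in all 3 libraries, whereas in mutants Wnt11, at 7.82 to 12.7 FPKM, overlapped Wnt5a, at 10 to 10.8 FPKM.

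**Figure D3:**
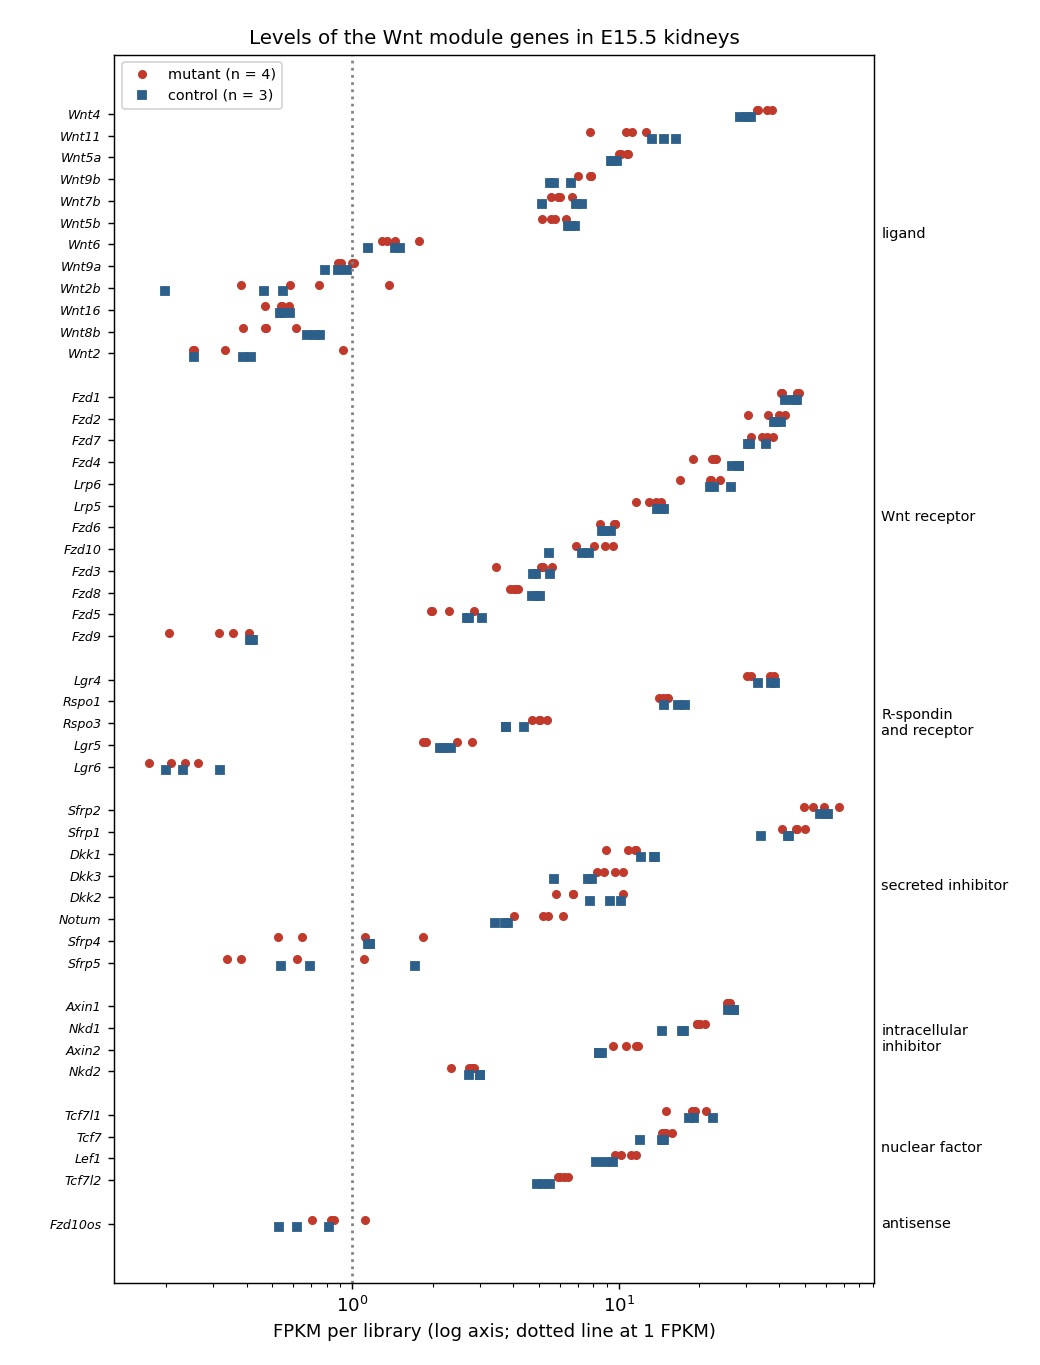
FPKM of all 46 genes in every library on a log axis, grouped by role and ordered by the mutant mean within each role (circles, 4 mutants; squares, 3 controls). Wnt4 leads the ligands at 33.1 to 37.5 FPKM in mutants and 28.6 to 31.3 FPKM in controls, and the 9 genes that were not tested lie near or left of the dotted line at 1 FPKM.

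Wnt9b, the signal of the ureteric epithelium that induces nephrons, was at 7.89, 7.86, 7.80 and 7.04 FPKM in mutant replicates 1 to 4, against 6.62, 5.54 and 5.69 FPKM in control replicates 1 to 3. All mutants were above all controls, and mutant replicate 4 lay below the other 3. The log2 fold change was 0.32 (SE 0.0791; limma adjusted p = 0.0937), and 0.36 (SE 0.102; adjusted p = 0.0122) in the authors' deposited table. Wnt11, a ligand of the ureteric tips that is needed for normal branching in mice, was at 12.7, 7.82, 11.2 and 10.6 FPKM in mutants, against 13.3, 14.8 and 16.4 FPKM in controls. The groups did not overlap, although mutant replicate 1 came close to control replicate 1 and mutant replicate 2 was the lowest. For Wnt11 the log2 fold change came to -0.46 (SE 0.142), with an adjusted p of 0.165 in limma, and to -0.49 (SE 0.157; adjusted p = 0.0393) in the authors' deposited table.

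Wnt7b, which the ureteric stalk makes and which the kidney medulla needs, overlapped between groups, at 6.67, 5.91, 5.58 and 6.02 FPKM in mutants and 6.90, 7.28 and 5.13 FPKM in controls. Its log2 fold change was -0.07 (95% interval -0.32 to 0.18; limma adjusted p = 0.888). The 3 ureteric ligands had fold changes of different sign, while 8 of the 13 ureteric markers were above 0 and 5 below. Of these markers 1, Calb1, passed limma's test, as higher in mutants, where 0.475% of all genes did. Groups did not overlap for 5 with mutants higher and 2 with mutants lower (5.93% and 8.61% over all genes). Ret, the receptor of the ureteric tips, was among the 5, at 9.51, 13.6, 14.6 and 10.6 FPKM in mutants and 7.88, 8.45 and 8.71 FPKM in controls (limma adjusted p = 0.141). The 2 lower ones were Aqp2 and Tfap2b (limma adjusted p = 0.0775 and 0.0714). As a percentage of the summed ureteric markers, Wnt9b came to 1.96, 2.21, 2.11 and 1.89 in mutants and 2.14, 1.70 and 1.72 in controls, so on that measure the groups overlapped. Wnt11 came to 3.15, 2.20, 3.03 and 2.85 in mutants and 4.31, 4.54 and 4.95 in controls, and did not overlap. The sum holds markers that differed themselves, such as Calb1, with a mean of 71.6 FPKM in mutants and 43.1 FPKM in controls. Krt8 and Krt18 had the highest means in the sum, at 84.3 and 83.9 FPKM in mutants and 76.4 and 70.4 FPKM in controls. The groups of Krt8 overlapped and those of Krt18 did not. Hoxb7 and Etv5, also in the sum, overlapped between groups. The percentages were chosen after the values were seen and carry no test, and the part of the ureteric markers in either difference was not tested.

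Wnt4, which nephron progenitors switch on as they turn into epithelium, was at 37.5, 33.4, 33.1 and 36.1 FPKM in mutants, against 28.6, 30.3 and 31.3 FPKM in controls. All mutants were higher, by a log2 fold change of 0.21 (95% interval 0.06 to 0.37; limma adjusted p = 0.181; adjusted p = 0.0952 in the authors' deposited table). The markers of new nephrons had the other sign: 8 of 9 had a fold change below 0, with 0 called by limma, 6 lower at an unadjusted p under 0.05 (8.48% over all genes) and 5 lower in the authors' deposited table (3.74% over all genes). Fgf8, a growth factor of that stage, was at 4.04, 1.82, 2.72 and 4.04 FPKM in mutants and 6.86, 7.19 and 6.53 FPKM in controls. Its log2 fold change of -0.96 was the lowest of the 9. Pax8, Jag1 and Sox4, at -0.07, -0.11 and 0.03, overlapped between groups. Wnt4 is also made in the medullary stroma, and the table does not separate these sources.

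Wnt5a and Wnt5b, ligands best known for signalling without beta-catenin, had fold changes of opposite sign. Wnt5a was at 10, 10.7, 10.2 and 10.8 FPKM in mutants and 9.85, 9.40 and 9.34 FPKM in controls (log2 fold change 0.12, SE 0.0621; limma adjusted p = 0.476). Wnt5b was at 6.31, 5.15, 5.75 and 5.57 FPKM in mutants and 6.46, 6.86 and 6.64 FPKM in controls (log2 fold change -0.20, SE 0.0769; limma adjusted p = 0.291). Neither pair of groups overlapped, though the nearest mutant and control lay close together in both. Wnt6 was near the filter, at 1.29 to 1.77 FPKM in mutants and 1.14 to 1.51 FPKM in controls.

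**Figure D4:**
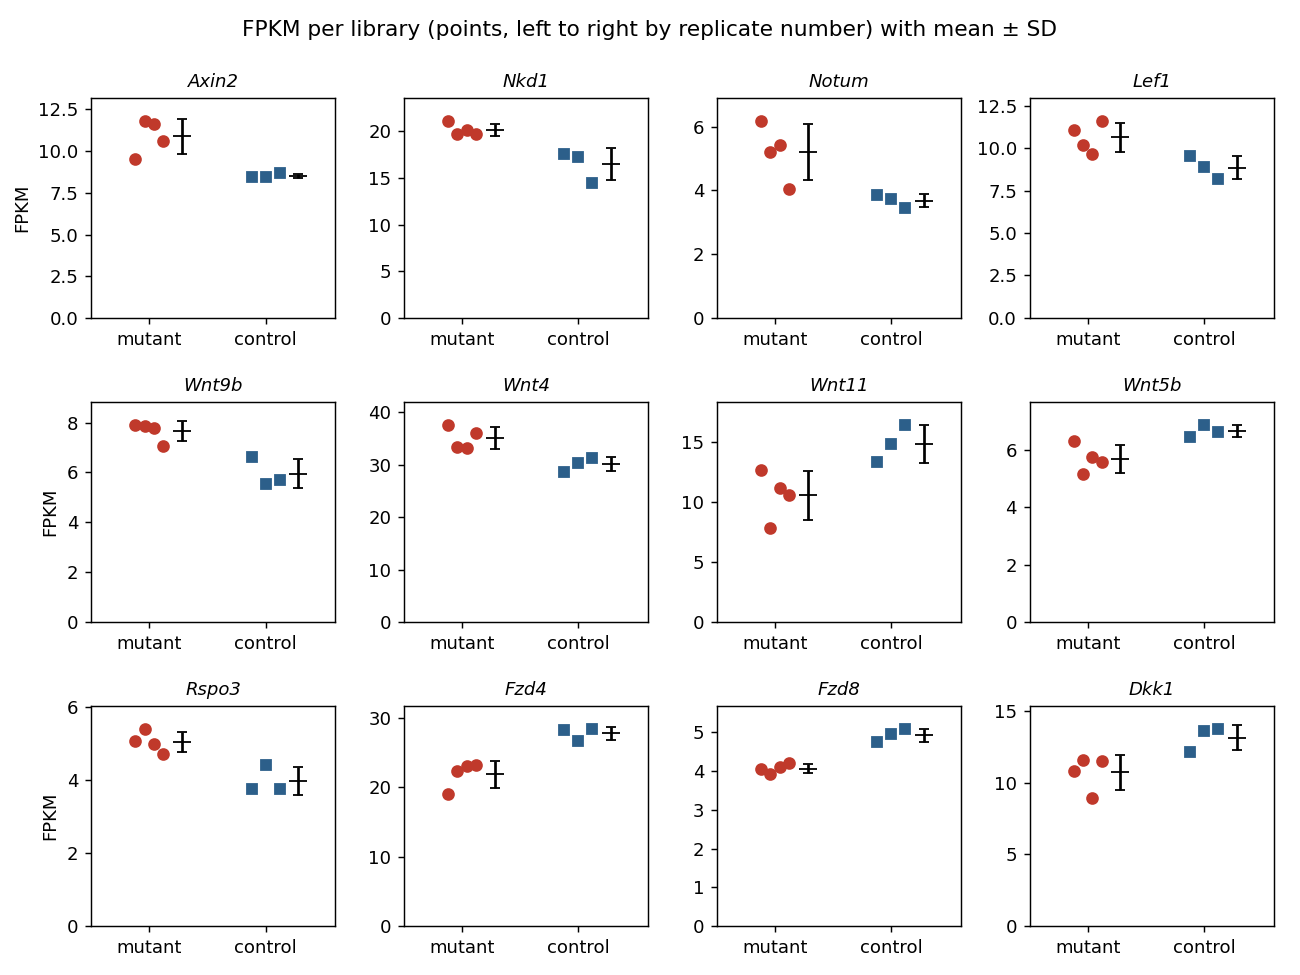
FPKM of 12 module genes in every library, with the mean and SD beside the points (circles, 4 mutants; squares, 3 controls; axes start at 0). All 12 are among the 15 tested genes whose groups did not overlap, so no gene with overlap is drawn. Mutants lie above the controls for Axin2, Nkd1, Notum, Lef1, Wnt9b, Wnt4 and Rspo3, and below them for Wnt11, Wnt5b, Fzd4, Fzd8 and Dkk1.

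Among the receptors, Fzd4 and Fzd8 were lower in all mutants. These 2 frizzled receptors act together in the growth of the mouse ureteric tree, and Fzd4 is also the receptor through which Norrin acts on vessels. Fzd4 was at 19.0, 22.3, 23.0 and 23.2 FPKM in mutants, against 28.2, 26.7 and 28.3 FPKM in controls. Mutant replicate 1 was the lowest and the groups did not overlap. The log2 fold change of Fzd4 was -0.33 (SE 0.0781; limma adjusted p = 0.0802), and -0.34 (SE 0.0929; adjusted p = 0.00776) in the authors' deposited table. Fzd8 was at 4.04, 3.91, 4.09 and 4.20 FPKM in mutants, against 4.74, 4.95 and 5.07 FPKM in controls, for which limma gave a log2 fold change of -0.23 (SE 0.0666) at an adjusted p of 0.15. It was -0.28 (SE 0.0820; adjusted p = 0.0197) in the authors' deposited table. The spread within either group was small for Fzd8. Of 9 vessel markers 8 had a fold change above 0, with summed levels of 234.4 to 247.9 FPKM in mutants and 221.9 to 228.4 FPKM in controls. Limma called 0 of these 9, and 1 had an unadjusted p under 0.05 (11.1%, against 13.7% over all genes). All 8 podocyte markers and all 9 tested proximal tubule markers had a fold change below 0. The part of any of these lists in the level of Fzd4 was not tested.

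The remaining tested receptors overlapped between groups. The most abundant frizzled genes were Fzd1, at 40.7 to 47.7 FPKM in mutants and 42.2 to 46.8 FPKM in controls, Fzd2, at 30.6 to 42.2 and 38.3 to 40.7 FPKM, and Fzd7, at 31.3 to 38.1 and 30.6 to 35.7 FPKM. These neighbours in the order of levels overlapped one another in mutants. Summed over the 10 listed frizzled genes, the FPKM came to 155 to 176 in mutants and 167 to 181 in controls. Fzd3, Fzd5, Fzd6 and Fzd10 stood between 1.98 and 9.69 FPKM across all libraries. For Fzd10 the log2 fold change was 0.26 (SE 0.129), with an adjusted p of 0.434 in limma, and it ran from 0.13 to 0.35 with 1 library left out. Its antisense neighbour Fzd10os, at 0.705 to 1.11 FPKM in mutants and 0.531 to 0.818 FPKM in controls, was not tested, and since no source used here gives the strand option used in counting, reads of the pair may not have been told apart. The co-receptors Lrp5 and Lrp6, which pair with a frizzled protein, were at 11.6 to 14.4 and 17.0 to 24.1 FPKM in mutants and at 13.9 to 14.8 and 22.0 to 26.4 FPKM in controls, with adjusted p of 0.626 and 0.671 in limma.

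R-spondins bind Lgr receptors and keep frizzled proteins on the cell surface, which strengthens a Wnt signal. Rspo3 was at 5.07, 5.39, 5.00 and 4.73 FPKM in mutants, against 3.76, 4.42 and 3.77 FPKM in controls. All mutants were higher (log2 fold change 0.28, SE 0.0791; limma adjusted p = 0.133). In the authors' deposited table it was 0.34 (SE 0.113) at an adjusted p of 0.0499, just inside the threshold. Rspo1 was more abundant and overlapped between groups, at 15.3, 14.7, 14.2 and 15.2 FPKM in mutants and 14.8, 17.8 and 16.7 FPKM in controls (log2 fold change -0.13, 95% interval -0.30 to 0.03; limma adjusted p = 0.502). Of the receptors, Lgr4 was at 31.4, 36.9, 30.2 and 38.3 FPKM in mutants and 37.3, 38.5 and 33.4 FPKM in controls (95% interval of the log2 fold change -0.31 to 0.13; limma adjusted p = 0.793). Lgr5, which marks cells of the forming nephron and other Wnt-responsive cells, was at 1.89, 1.84, 2.82 and 2.47 FPKM in mutants and 2.34, 2.13 and 2.21 FPKM in controls (95% interval -0.26 to 0.27; limma adjusted p = 0.999). Its mutant values fell on both sides of the controls.

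The secreted inhibitors did not share a direction. They were led by Sfrp2 and Sfrp1, decoys that resemble the ligand-binding part of a frizzled receptor, and Sfrp2 had the highest FPKM of the module in all 7 libraries. Sfrp2 was at 59.2, 49.4, 67.2 and 53.8 FPKM in mutants and 60.9, 60.0 and 56.9 FPKM in controls, with the controls inside the range of the mutants (limma adjusted p = 0.905). Sfrp1 was at 46.6, 46.4, 50.2 and 41.0 FPKM in mutants and 43.5, 43.3 and 34.3 FPKM in controls (log2 fold change 0.19, SE 0.101; limma adjusted p = 0.485), which was 0.08 without control replicate 3. Summed over the 8 listed inhibitors, the FPKM came to 125 to 154 in mutants and 123 to 141 in controls.

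Notum, an enzyme that strips the lipid from Wnt proteins and is itself a target of the pathway, had the largest positive fold change of the tested module genes. It was at 6.17, 5.20, 5.43 and 4.04 FPKM in mutants, against 3.84, 3.74 and 3.44 FPKM in controls. All mutants were higher, although mutant replicate 4 was close to the controls. The log2 fold change of Notum was 0.40 (SE 0.116; limma adjusted p = 0.142), and 0.50 (SE 0.16; adjusted p = 0.0338) in the authors' deposited table. Dkk1, which blocks Lrp5 and Lrp6, was at 10.8, 11.6, 8.96 and 11.5 FPKM in mutants, against 12.1, 13.6 and 13.7 FPKM in controls. It was lower in all mutants (log2 fold change -0.28, SE 0.0952; limma adjusted p = 0.222; adjusted p = 0.159 in the authors' deposited table). Dkk2 overlapped between groups, at 6.73, 6.74, 10.4 and 5.82 FPKM in mutants and 10.2, 9.29 and 7.78 FPKM in controls. Dkk3, a divergent member of the family, was at 8.77, 9.68, 10.4 and 8.26 FPKM in mutants, against 7.94, 7.66 and 5.71 FPKM in controls (log2 fold change 0.35, SE 0.116; limma adjusted p = 0.202; 0.22 to 0.43 with 1 library left out). Sfrp4 was at 0.527 to 1.84 FPKM in mutants and 1.14 to 1.16 FPKM in controls.

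Inside the cell, the inhibitors Axin2 and Nkd1 were higher in every mutant, while their relatives Axin1 and Nkd2 overlapped between groups. Axin2, a scaffold of the complex that destroys beta-catenin and a standard target gene of the pathway, was at 9.54, 11.8, 11.6 and 10.6 FPKM in mutants, against 8.44, 8.44 and 8.66 FPKM in controls. The controls lay within a narrow range below every mutant. Its log2 fold change was 0.32 (SE 0.0802; limma adjusted p = 0.0976), and 0.35 (SE 0.0980; adjusted p = 0.00996) in the authors' deposited table. Axin1, the scaffold that cells make without a Wnt signal, was at 25.5 to 26.1 FPKM in mutants and 25.7 to 27.2 FPKM in controls, with a log2 fold change of -0.04 (95% interval -0.16 to 0.08; limma adjusted p = 0.850). Nkd1, which binds Dishevelled and dampens the signal, was at 21.1, 19.7, 20.1 and 19.7 FPKM in mutants, against 17.6, 17.3 and 14.5 FPKM in controls. Mutants were again all higher (log2 fold change 0.28, SE 0.0770; limma adjusted p = 0.121), and the authors' deposited table gave 0.29 (SE 0.0937; adjusted p = 0.0379). Nkd2, its paralog, overlapped, at 2.35 to 2.86 FPKM in mutants and 2.73 to 3.02 FPKM in controls.

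Leaving out mutant replicate 1 brought Axin2 and Fzd4 past limma's threshold, with log2 fold changes of 0.37 and -0.27 and adjusted p of 0.0238 and 0.0391. That fit called 2 of the 37 module genes and 481 of all 13466 genes tested. The main fit called 206 of all genes, so calls rose over the whole table and not only in the module. Leaving out any of the other 6 libraries, mutant replicate 3 included, brought 0 module genes past it. Adjusted p for Axin2 ran from 0.0238 to 0.335 over all limma alternatives, and for Fzd4 from 0.0391 to 0.254.

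Of the DNA-binding partners of beta-catenin, Lef1 and Tcf7l2 were higher in every mutant. Lef1 was at 11.1, 10.2, 9.69 and 11.6 FPKM in mutants, against 9.52, 8.87 and 8.18 FPKM in controls. The groups did not overlap, and mutant replicate 3 was close to control replicate 1 (log2 fold change 0.24, SE 0.0825; limma adjusted p = 0.214; adjusted p = 0.133 in the authors' deposited table). Tcf7l2 was at 6.43, 5.89, 6.04 and 6.25 FPKM in mutants, against 5.53, 5.19 and 4.95 FPKM in controls (log2 fold change 0.20, SE 0.0686; limma adjusted p = 0.213). Tcf7 and Tcf7l1, of which Tcf7l1 acts mainly as a repressor, overlapped, at 14.5 to 15.9 and 15 to 21.2 FPKM in mutants and 12 to 14.8 and 18.3 to 22.5 FPKM in controls. Genes known as targets of the pathway did not share a direction. Beside Axin2, Nkd1, Notum and Lef1, which were higher in every mutant, Dkk1 was lower in every mutant and Lgr5 overlapped between groups. Of targets outside the module, Myc, a growth regulator, was at 25.9, 23.0, 23.8 and 25.6 FPKM in mutants, against 27.3, 30.3 and 30.3 FPKM in controls. It was lower in every mutant (log2 fold change -0.24, SE 0.0691; limma adjusted p = 0.135). The log2 fold changes of Sp5, Znrf3, Ccnd1 and Bambi were -0.22, -0.13, -0.05 and -0.01, and their groups overlapped, whereas Apcdd1, Rnf43 and Tnfrsf19, at 0.33, 0.31 and 0.45, were higher in every mutant. Cd44, at 0.38, and Twist1, at -0.07, also overlapped between groups. None of these passed an adjusted p under 0.05 in limma. Over the same libraries 13 of 16 stromal markers were above 0 and 3 below, and limma called 1 higher. Of 14 nephron progenitor markers 12 were below 0, with 6 called lower and 1 higher. Over all genes limma called 1.05% lower and 0.475% higher. The progenitor markers Six2, Eya1, Osr1, Sall1, Gdnf and Hoxd11 overlapped between groups and were not among those called. The part of these marker lists in the values of the targets was not tested.

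Stretches before the start sites are shown for genes of both directions, to set letters read by Lef1 and Tcf7 proteins beside the values above. RefSeq promoters (GRCm38.p6) were at hand for 30 of the 46 genes, and the 250 bases before each start were searched for CTTTGA and CTTTGT, the core that these factors bind, on either strand. The cores differ in their last letter, so no stretch counts for both. Either core was in 10 of the 38 module windows, and in 27.6% of all 32851 windows. At least 3 matches were found in 2 module windows and in 0.776% of all. Both are shown, Dkk1 (chr19:30549497-30549746, minus strand), which was lower in all mutants, and a downstream start of Lef1 (chr3:131156044-131156293, plus strand), whose other 3 windows held 0. The upstream start of Wnt11 (chr7:98834862-98835111, plus strand), lower in mutants, held 1 match, and the window of Axin2 (chr11:108920099-108920348, plus strand), higher in mutants, held 0. Each runs 5′ to 3′ on the strand of its gene, and capitals mark the matches.
Dkk1: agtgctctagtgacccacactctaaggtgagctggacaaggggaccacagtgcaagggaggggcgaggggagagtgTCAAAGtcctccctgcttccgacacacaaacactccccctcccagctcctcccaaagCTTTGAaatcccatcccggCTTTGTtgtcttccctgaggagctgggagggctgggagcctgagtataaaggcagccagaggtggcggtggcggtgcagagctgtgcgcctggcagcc
Lef1, downstream start: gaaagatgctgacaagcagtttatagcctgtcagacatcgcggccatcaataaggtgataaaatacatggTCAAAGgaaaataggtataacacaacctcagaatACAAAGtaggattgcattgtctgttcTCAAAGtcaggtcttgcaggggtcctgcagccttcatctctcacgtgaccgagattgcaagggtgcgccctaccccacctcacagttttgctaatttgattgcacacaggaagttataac
Wnt11: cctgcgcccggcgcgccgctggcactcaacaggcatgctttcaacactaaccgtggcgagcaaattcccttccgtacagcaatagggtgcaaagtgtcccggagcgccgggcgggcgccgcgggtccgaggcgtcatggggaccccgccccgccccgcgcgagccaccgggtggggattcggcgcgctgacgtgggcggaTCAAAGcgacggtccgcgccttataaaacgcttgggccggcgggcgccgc
Axin2: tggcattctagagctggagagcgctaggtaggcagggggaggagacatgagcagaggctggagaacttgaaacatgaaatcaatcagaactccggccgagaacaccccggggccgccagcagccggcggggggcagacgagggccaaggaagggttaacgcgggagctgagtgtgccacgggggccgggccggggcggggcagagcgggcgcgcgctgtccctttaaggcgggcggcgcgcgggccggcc
The matches in Dkk1 began 174, 117 and 98 bases before its start, those in Lef1 180, 146 and 120 bases, and the match in Wnt11 50 bases. Which start the kidney uses is not given by the table, a match is a description of letters and not of binding, and its absence from Axin2 says only that these letters are not in this window.

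Of a further 57 genes of the pathway, covering secretion, co-receptors, the destruction complex, planar polarity and other targets, 55 were listed and 52 tested. As in the module, 0 passed limma's threshold. At an unadjusted p under 0.05 there were 15, with 8 higher and 7 lower (28.8%, where the share over all genes was 13.7%). The median log2 fold change was -0.02, and limma-voom called 1. The authors' deposited table called 7 (12.7%, against 5.49% of all genes), and these are named here after their values were seen. In that table Tnfrsf19, a TNF receptor family member and target of the pathway, Dact1, a Dishevelled-binding protein, and Rnf43, a ubiquitin ligase that removes frizzled receptors, were higher, with log2 fold changes of 0.53, 0.36 and 0.41. Sost and Sostdc1, secreted blockers of Lrp5 and Lrp6, Kremen1, a receptor for Dkk proteins, and Tle1, a corepressor, were lower, with -1.31, -0.92, -0.25 and -0.22. Sost had the lowest level of these, at 1.36, 0.683, 0.746 and 1.14 FPKM in mutants, against 2.67, 3.00 and 1.65 FPKM in controls, and Tnfrsf19 was at 6.17, 7.87, 8.46 and 7.18 FPKM in mutants, against 4.83, 5.48 and 5.09 FPKM in controls. Beta-catenin itself, Ctnnb1, averaged 313 ± 6.57 FPKM in mutants and 296 ± 6.71 FPKM in controls (SD, n = 4 and 3), with a log2 fold change of 0.08 (limma adjusted p = 0.700).

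No mutant library was the extreme one throughout: of the 37 tested genes, mutant replicates 1 to 4 were the lowest mutant for 9, 10, 8 and 10 and the highest for 13, 4, 11 and 9. Mutant replicate 1 held the lowest mutant values of Fzd3, Fzd4, Lrp5 and Lrp6, and the highest of Notum, Wnt4 and Wnt11. The counts do not weigh size. Fzd3 was at 3.46 FPKM in that library and at 5.1 to 5.63 FPKM in the other mutants, and Lrp6 at 17 and at 22 to 24.1 FPKM. Without mutant replicate 1 the 206 genes called over the whole table came to 481. Mutant replicate 3, the library with the high share of embryonic globin, held the highest of Fzd10, Dkk2, Dkk3, Sfrp1 and Sfrp2 and the lowest of Dkk1. Control replicate 3 was the lowest control for Wnt7b, Fzd10, Dkk3, Sfrp1, Nkd1 and Lef1, and without it the 14 genes at an unadjusted p under 0.05 came to 9.

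**Figure D5:**
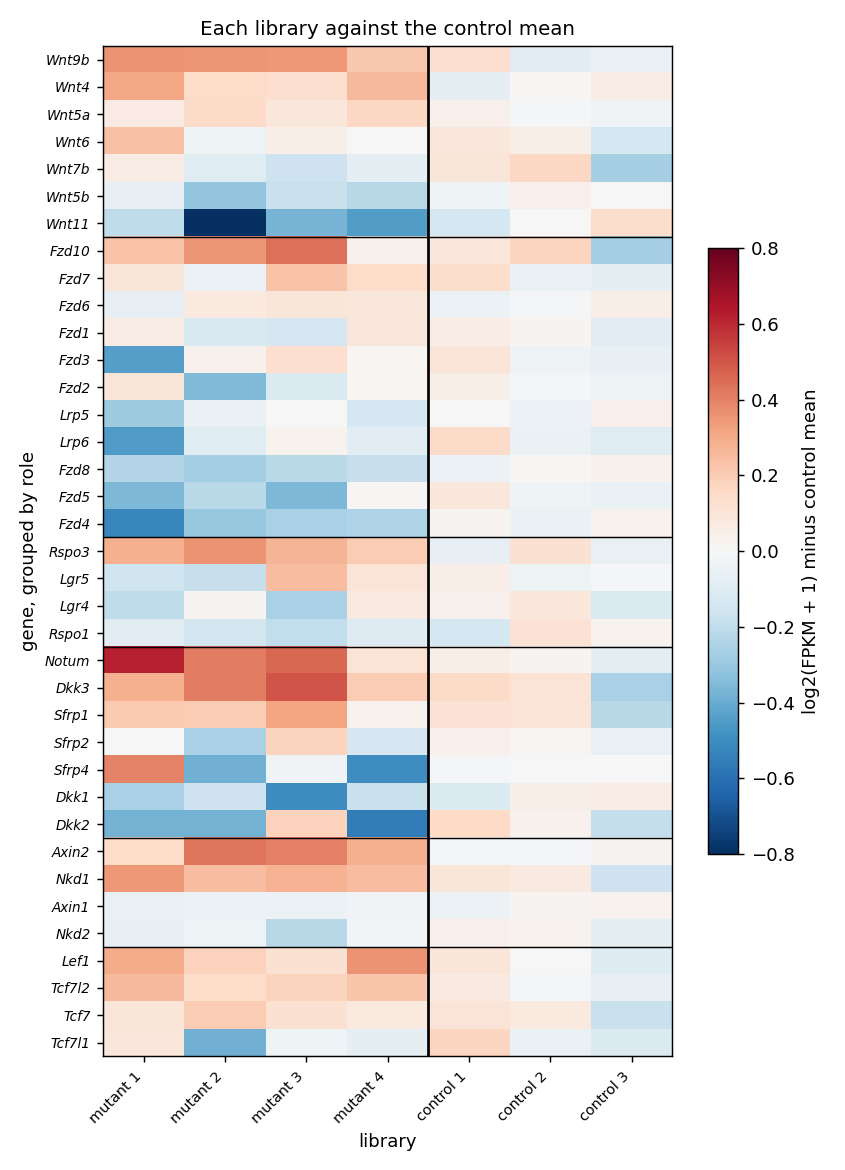
Level of each tested gene in each library, as log2(FPKM + 1) minus the mean of the controls, with mutants left of the vertical line and controls right of it. Rows run by role and, within a role, by fold change; Wnt9b, Notum, Axin2, Nkd1 and Lef1 are above 0 in all 4 mutants and Wnt11, Fzd4 and Fzd8 below 0.

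The 9 genes that did not reach the filter have values and no main test. Wnt8b was at 0.389, 0.473, 0.612 and 0.471 FPKM in mutants, against 0.753, 0.725 and 0.672 FPKM in controls, which rested on 73 to 98 reads in mutants and 96 to 183 reads in controls. Its groups did not overlap, and the authors' deposited table gave an adjusted p of 0.175. Wnt2b was at 0.582, 0.747, 1.37 and 0.382 FPKM in mutants and 0.466, 0.549 and 0.198 FPKM in controls, on 27 to 210 reads per library, with overlap. Fzd9, at 0.205 to 0.407 FPKM in mutants and 0.414 to 0.424 FPKM in controls, rested on 22 to 68 reads. Its groups only just failed to overlap, with the nearest values on 43 reads in mutant replicate 3 and 39 in control replicate 3. The authors' deposited table gave Fzd9 an adjusted p of 0.784. Wnt2, Wnt9a, Wnt16, Sfrp5, Lgr6 and Fzd10os overlapped between groups and lay between 0.172 and 1.72 FPKM in all libraries. Without the filter 0 of the 46 passed in limma, where 255 of all 16167 genes did. Of the 46, 15 had an unadjusted p under 0.05 in that fit, for which no share over all genes was counted.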

How the data were processed

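RNA from 7 libraries was sequenced by the authors from a stranded kit, per the labels' protocols. The submitters' processing notes name HTSeq (0.6.1p2) and STAR (2.6.0c), with mm39 (GRCm39) as the build, besides Trim Galore (0.5.0) and FastQC (0.11.5), and the authors compared the groups with DESeq2. The strand setting and the gene length behind the FPKM are not given in the sources used here. Per the file headers, the deposited table holds FPKM per library, the mean of normalized counts (baseMean, a signal), and DESeq2's log2 fold change, its error, the test statistic (a score) and p-values. Of the genes, 14 lack a p-value, and no gene below a baseMean of 18.5 is listed.

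Groups and replicate numbers came from the titles. Genes with at least 1 FPKM in at least 3 libraries (13466) were compared on log2(FPKM + 1) with limma (version 3.58.1, in R 4.3.3), which understates changes of low genes, with trended, robust empirical Bayes, two-sided, and Benjamini-Hochberg adjustment over all of them; adjusted p in the text is limma's unless the deposited table is named. The fit was tested on simulated data, where it called 4% of genes changed 1.25-fold, 54% at 1.5-fold, 80% at 2-fold and 98% at 4-fold. Of its 129 calls there, 11 were false. Irx3 and Irx5 also had an exact permutation test over 35 splits, with p = 0.0286, the smallest it can give, and 0.943. Reads were recovered from baseMean, FPKM and a size factor per library, all within 0.05 of whole numbers (100% of values), so depth is 40511920 to 69028943 reads; libraries of a group differed beyond counting noise (chi-square per gene at least 20.4). The module genes, role groups and lists were chosen with earlier results of these data known. Full values were given for genes called by limma or in the deposited table and for 19 genes with known kidney roles; other genes given by library were picked after their values were seen. Marker lists not described in full in the report had these counts above and below 0: podocyte 0 and 8, proximal tubule 0 and 9, immune 11 and 0, adrenal and gonad 2 and 0, skeletal muscle and neural 1 and 3. Of these limma called 4 podocyte, 3 proximal tubule and 1 skeletal muscle and neural marker lower (1.05% over all genes). It called 1 adrenal and gonad marker higher (0.475% over all genes), in a list of 9 of which 2 were tested. Figures were drawn with matplotlib 3.10.9, and tables were made with pandas 2.3.3 and numpy 2.4.6 under Python 3.11.15. The alternatives are described in the closing section.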

Additional observations from a re-analysis of the deposited data

Results flagged for a closer look

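Among the 46 module genes and the 2 targeted genes, 3 had a mutant library whose gap to the nearest other mutant took up most of the group's range; chance flags about 1 in 20 groups of this kind. Wnt2 was at 0.924 FPKM in mutant replicate 3 and at 0.251 to 0.332 FPKM in the other mutants. Wnt9b was at 7.04 FPKM in mutant replicate 4 and at 7.80 to 7.89 FPKM in the other mutants. Fzd6 was at 8.52 FPKM in mutant replicate 1 and at 9.56 to 9.69 FPKM in the other mutants. The cause was not tested.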

How the results depend on the processing

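The alternatives were quantile normalization, median-of-ratios scaling, a minimum of 5 FPKM or none, a smaller pseudocount (0.1), the replicate number as a block, plain empirical Bayes, the beta-globin ratio as a covariate, limma-voom on recovered reads, the deposited DESeq2 test, and leaving out each library. The 206 genes called over the whole table came to 109 with the smaller pseudocount, 60 with the minimum of 5 FPKM and 886 in the deposited table, and to 15 to 481 when 1 library was left out, lowest without control replicate 2 and highest without mutant replicate 1. Calls that were higher in mutants made up 31.1% of the 206, 40.4% with the smaller pseudocount and 51.7% with the minimum of 5 FPKM. Module genes called came to 8 in the deposited table, to 0 to 2 with 1 library left out, and to 0 in every other alternative; those at an unadjusted p under 0.05 stayed between 11 and 17, except that leaving out 1 library gave 9 to 16. The share of all genes at an unadjusted p under 0.05 was counted for the main fit only, at 13.7%. Further pathway genes called came to 7 in the deposited table, to 1 each with quantile normalization (Tnfrsf19), the globin covariate (Sostdc1) and limma-voom (Sost), and to 0 to 2 with 1 library left out. Shared replicate numbers did not pair the libraries: deviations of same-numbered libraries correlated at -0.156, 0.0276 and 0.0980, and 1 of 6 libraries correlated best with its own number. The titles that give these numbers name no litter, so pairing by litter was not examined. With the replicate number as a block, 2 genes were called in all, 0 in the module, and Irx3 had a log2 fold change of -1.24 (limma adjusted p = 0.0974). Irx3 kept its direction with 1 library left out (-1.24 to -1.02), but its adjusted p was 0.0696 and 0.0839 without control replicates 1 and 2. Irx5 changed sign with quantile normalization (0.03), the globin covariate (0.02) and in the deposited table (0.03), and ran from -0.12 to 0.11 with 1 library left out. Over 18 named genes, 283 of 303 log2 fold changes kept sign and side of the threshold, 10 passed it and 10 changed sign. Those that changed sign were Lgr5 with the pseudocount of 0.1 (-0.0031), the block (-0.03), the globin covariate (-0.06), limma-voom (-0.02) and 1 library left out (-0.08 to 0.06), Wnt7b with 1 library left out (-0.20 to 0.02) and Sfrp2 likewise (-0.13 to 0.01). Wnt2b was under the filter and has no such values. At 1 FPKM and below, low counts limit what could be detected.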
